A study of Xiphophorus maculatus x Xiphophorus hellerii with 32 samples.

Results

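The stress-activated MAP kinases measured here were 3 rows of a count table with 20499 rows, chosen by name: MAPK9, MAPK14_2of2 and MAPK11. A further 27 rows carry a gene symbol, and the others carry transcript identifiers. The RNA came from hybrid fish of the BC1 backcross generation between Xiphophorus maculatus, a platyfish, and Xiphophorus hellerii, a swordtail. At 9 months of age, fish with spontaneous melanoma were dissected, and tumor and skin were taken. All the fish bore melanoma, so the skin libraries are the control tissue of diseased fish and not of healthy ones, and both tissues carry the hybrid genotype. Libraries numbered 16 from skin and 16 from tumor, and both tissues were available for 14 fish. Each fish is named in the sample titles by a number and a letter. The number (11935, 11949, 11960 or 11963) is shared by several fish and is called the title number below. The sources used here do not say what it marks. One tumor title, 11969b, carries a further number and matched no column of the table. One tumor column, whose name points to fish b of 11960, matched no tumor title. Whether these are the same sample cannot be told from the labels, so that column entered the tumor group with no fish or title number.

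These kinases stand at the end of a cascade that answers ultraviolet light, oxidants, osmotic shock and inflammatory cytokines. Upstream kinases phosphorylate them on a threonine and a tyrosine, and the active kinases then phosphorylate transcription factors and further kinases. MAPK9 encodes a c-Jun N-terminal kinase, whose targets include the transcription factor JUN. MAPK14 and MAPK11 encode the alpha and beta forms of the p38 kinase, which act on downstream kinases such as MAPKAPK2 and, in mammalian pigment cells, on the pathway that controls the pigment-cell factor MITF. These roles are known from mammals. Activity is set by phosphorylation, which RNA counts do not measure. The name MAPK14_2of2 marks a copy of MAPK14; reads that fit the other copy may have been counted in either, so its level is uncertain in that respect.

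Depth limits the members unequally. Skin libraries held 4239036 to 6673975 counts in total, and tumor libraries 2578877 to 6977222. MAPK9 averaged 180 reads per library (relative counting error 7.46%), MAPK14_2of2 averaged 55.2 reads (13.5%), and MAPK11 averaged 6.75 reads (38.5%). MAPK9 and MAPK14_2of2 were among the 14542 rows that passed the low-count filter of the test across all rows. MAPK11 did not pass. As a check of the tissue labels, Xmrk, the mutated epidermal growth factor receptor gene that drives melanoma in this cross, was higher in the tumor of 14 of 14 fish (log2 fold change 3.02, SE 0.24, edgeR adjusted p = 1.55e-11). Of 50 marker genes listed for pigment cells, keratinocytes, muscle, immune cells, fibroblasts, endothelium and blood, 0 matched a symbol, so the cellular make-up of the pieces was not measured.

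MAPK9, the c-Jun N-terminal kinase gene, was measured in every library of both tissues at nearly the same level. In skin its level ran from 22.8 to 44.2 CPM (read count scaled to library size with TMM factors) with a median of 31.9. In tumor it ran from 24.9 to 41.7 CPM with a median of 30.2. The tumor values thus lay wholly inside the range of the skin values. Skin averaged 33.2 ± 5.72 CPM, and tumor averaged 30.6 ± 3.91 CPM (SD, n = 16 each). The log2 fold change of tumor over skin was -0.12 (SE 0.10, 95% interval -0.32 to 0.09, edgeR quasi-likelihood adjusted p = 0.459). In linear terms that interval runs from 0.800-fold to 1.07-fold. The difference did not pass the threshold of 0.05, and a change of 2-fold in either direction lies outside the interval. This fit, and that of MAPK14_2of2 below, ignores the pairing by fish. Fits with the fish as a block are given with the pairs. In bulk tissue, fewer cells that express a gene and less RNA per cell cannot be told apart.

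MAPK14_2of2, the copy of the p38 alpha gene, also overlapped between the tissues. In skin it ran from 6.37 CPM in 11949l to 15.5 CPM in 11949q, with a median of 10.8. In tumor it ran from 4.43 CPM in the library without a matching title to 13.1 CPM in 11963g, with a median of 8.80. The lowest tumor lay below every skin, and the highest skin above every tumor. Skin averaged 10.5 ± 2.49 CPM, and tumor averaged 8.87 ± 2.07 CPM (SD, n = 16 each). The log2 fold change was -0.24 (SE 0.14, 95% interval -0.53 to 0.06, edgeR adjusted p = 0.256). This interval spans 0.692-fold to 1.04-fold, so the difference did not pass either.

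**Figure D1:**
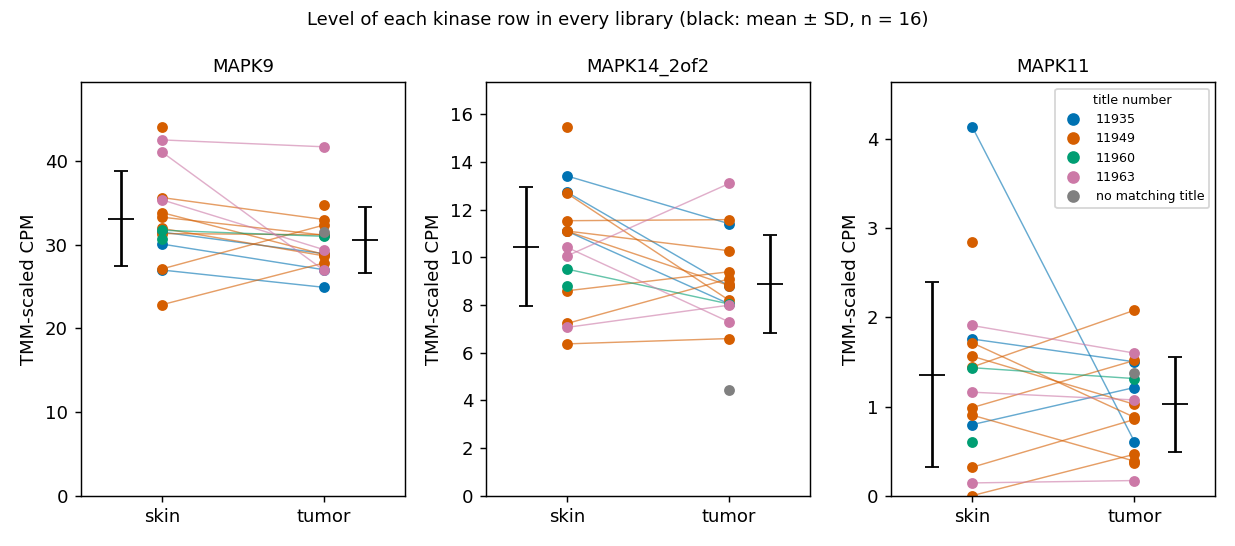
TMM-scaled CPM (vertical axes, different scales) of MAPK9, MAPK14_2of2 and MAPK11 in 16 skin and 16 tumor libraries; points are libraries colored by title number, lines join the tissues of a fish, and black bars give the mean and SD. Skin and tumor overlap for all 3 genes, and the highest MAPK11 value, 4.14 CPM, is the skin of 11935f.

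Across all 14542 tested rows 23.5% passed in this comparison, against 0 of the 2 tested kinase rows. With total-count scaling, chosen after the data were seen, 25.1% passed, also against 0 of the 2. An unadjusted p under 0.05 was seen for 34.2% of all rows and for 0 of the 2. DESeq2 called 26.1% of all rows and 0 of the 2, with unadjusted p of 0.165 for MAPK9 and 0.0635 for MAPK14_2of2. The median absolute log2 fold change over all tested rows was 0.36. MAPK9 was below it, with 17.8% of the rows showing a smaller change, and so was MAPK14_2of2, with 35.8%.

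MAPK11, the p38 beta gene, was near the limit of detection. It had 118 reads summed over the 16 skin libraries and 98 over the 16 tumors. Single skin libraries held from 0 to 22 reads with a median of 6.5, and single tumors held from 1 to 14 with a median of 5.5. The skin of 11949b held 0 reads, which at its depth allows up to 0.476 CPM (3 reads, counting error only). Skin averaged 1.36 ± 1.04 CPM, and tumor averaged 1.03 ± 0.533 CPM (SD, n = 16 each). The difference of -0.33 CPM was within the spread between libraries (two-sided permutation test with 100000 resamples, p = 0.279). A large part of it came from 1 library: the skin of 11935f stood at 4.14 CPM, and without it the difference was -0.15 CPM (permutation p = 0.539). Fitted without the low-count filter, the log2 fold change was -0.37 (SE 0.38, edgeR adjusted p = 0.527), with an interval from -1.14 to 0.39. A level 2-fold lower in tumor lies inside that interval, so such a difference was not resolved at this depth.

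The 14 pairs were examined next, since both tissues of a fish share its genotype. MAPK9 was lower in the tumor of 12 of 14 fish with TMM or RLE scaling, but in 6 of 14 when libraries were scaled by their total counts alone. Among all tested rows 18.3% were lower in at least 12 of the 14 pairs with TMM, and 46.3% in at least 6 with total-count scaling. The difference within a fish ran from -0.60 on the log2 scale in 11963a, where the level went from 41.1 CPM in skin to 27.0 CPM in tumor, to 0.28 in 11949b, where it went from 22.8 to 27.8 CPM. The median over fish was -0.11. With the fish as a block, the log2 fold change of MAPK9 was -0.12 (SE 0.08, edgeR adjusted p = 0.212), where 46.2% of all rows passed. Of all skins, that of 11949b was the lowest for MAPK9, and the skin of 11963a was exceeded by those of 11949q and 11963d.

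MAPK14_2of2 showed no common direction among fish. It was lower in the tumor of 8 of 14 fish with TMM or RLE scaling and of 7 with total-count scaling. Among all tested rows 43.4% were lower in at least 8 pairs with TMM, and 39.1% in at least 7 with total-count scaling. The difference of MAPK14_2of2 ran from -0.61 on the log2 scale in 11949f to 0.37 in 11963g. The tumor of 11949f is the shallowest library, and its value rests on 24 reads. In 11963g the level was 10.1 CPM in skin and 13.1 CPM in tumor. With the fish as a block, the log2 fold change was -0.17 (SE 0.11, edgeR adjusted p = 0.220). MAPK11 was lower in the tumor of 8 of 14 fish. Its differences ran from -2.23 in 11935f, with 22 reads in skin and 4 in tumor, to 1.21 in 11949b, with 0 reads in skin and 3 in tumor, on the log2 scale with a prior count of 2. The exact sign-flip permutation test over the 14 fish gave p = 0.487 for the mean difference in CPM.

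**Figure D2:**
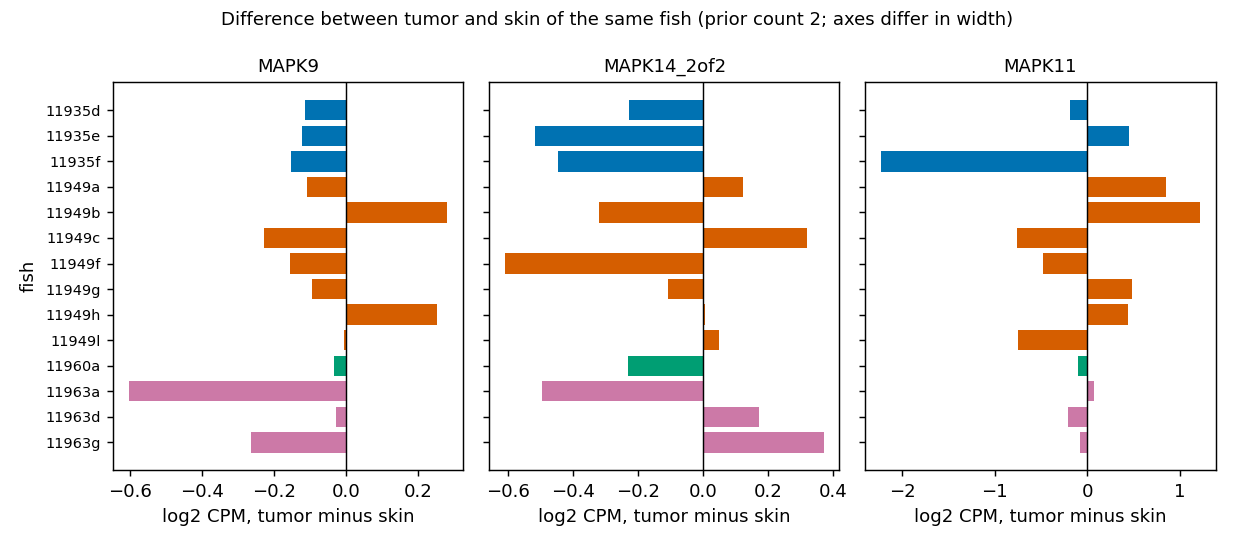
Difference in log2 CPM between the tumor and the skin of each of 14 fish (bars, colored by title number as in the plot of levels) for the 3 genes, with horizontal axes of different width. For MAPK9, 12 bars point to lower values in tumor and 2 to higher; for MAPK14_2of2 and MAPK11 the counts are 8 and 6.

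A ratio of both tested kinases within a library does not depend on how libraries are scaled. For each read of MAPK9 there were 0.326 ± 0.0994 reads of MAPK14_2of2 in skin and 0.295 ± 0.0818 in tumor (SD, n = 16 each). The ratio ran from 0.166 in the skin of 11963d to 0.497 in the skin of 11935d. In tumor it ran from 0.141 in the library without a matching title to 0.458 in 11935d. The mean log2 ratio differed by -0.13 between tumor and skin (two-sided permutation test with 100000 resamples, p = 0.412), less than the SD within a tissue of 0.46 in skin and 0.42 in tumor. That test ignores the pairing by fish. Within the 14 fish with both tissues the mean difference was -0.04 (exact sign-flip permutation test, p = 0.674). No difference between the tissues in the balance of the kinases was detectable.

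The comparison was repeated within the title numbers that had at least 3 libraries per tissue, and in each the tissues overlapped for both kinases. In 11935, MAPK9 stood at 27.0, 31.5 and 30.1 CPM in the skins of fish d, e and f and at 24.9, 29.0 and 27.0 CPM in their tumors. Each tumor was below its own skin with TMM scaling, and the groups overlapped. By total counts the tumor of 11935f was not below its skin (178 of 5789725 reads against 160 of 5303395). The log2 fold change of MAPK9 was -0.14 (SE 0.26, edgeR adjusted p = 0.916). MAPK14_2of2 in the same fish stood at 13.4, 12.7 and 11.1 CPM in skin and at 11.4, 8.79 and 8.05 CPM in tumor. This was again lower in each fish, with the tumor of 11935d above the skin of 11935f. For neither kinase was the share of all rows lower in each of these fish counted. The log2 fold change of -0.41 (SE 0.30, edgeR adjusted p = 0.690) did not pass.

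In 11963, MAPK9 stood at 41.1, 42.6 and 35.4 CPM in the skins of fish a, d and g and at 27.0, 41.7 and 29.4 CPM in their tumors. The tumor of 11963d was as high as the skins, and the other tumors lay below all 3 skins. The log2 fold change was -0.25 (SE 0.33, edgeR adjusted p = 0.9997). MAPK14_2of2 in these fish stood at 10.4, 7.06 and 10.1 CPM in skin and at 7.29, 8.00 and 13.1 CPM in tumor, lower in 11963a and higher in 11963d and 11963g. Its log2 fold change was 0.07 (SE 0.42, edgeR adjusted p = 0.9997), and the sign turned to -0.25 without the tumor of 11963g and to -0.09 without the skin of 11963d.

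In 11949, with 8 libraries per tissue, the skins averaged 32.5 ± 6.24 CPM of MAPK9, and the tumors 31.0 ± 2.40 CPM (SD). The fitted log2 fold change was -0.09 (SE 0.17, edgeR adjusted p = 0.800). For MAPK14_2of2 the skins averaged 10.5 ± 2.997 CPM, the tumors 9.11 ± 1.46 CPM (SD), and the log2 fold change was -0.23 (SE 0.23, edgeR adjusted p = 0.592). Among the 7 fish of 11949 with both tissues, MAPK9 was lower in 5 tumors and higher in 2 (median log2 difference -0.10). MAPK14_2of2 was lower in 3 tumors and higher in 4 (median 0.005). The log2 fold changes with these fish as a block were -0.03 for MAPK9 and -0.10 for MAPK14_2of2. That fit also leaves out the libraries without a partner. Among them is the skin of 11949q, the highest skin for both kinases (44.2 and 15.5 CPM). Over all rows 12.7% passed in 11949, 0% in 11935 and 0.399% in 11963, with 0 of the 2 kinases in each. With the fish as a block, edgeR called 27.7% of rows in 11949, 10.1% in 11935 and 7.87% in 11963, again with 0 of the 2 kinases. The blocked adjusted p in that order were 0.893, 0.569 and 0.475 for MAPK9 and 0.691, 0.210 and 0.955 for MAPK14_2of2. Without the block, the unadjusted p was under 0.05 for 1746 rows (11.7%) in 11935 and 1356 rows (9.34%) in 11963. DESeq2 called 608 rows (4.09%) in 11935 and 637 rows (4.4%) in 11963, and neither kinase was among these counts. Title number 11960 had 2 skins and 1 tumor with a title and was not tested. There MAPK9 stood at 31.8 and 30.7 CPM in the skins of fish a and b and at 31.0 CPM in the tumor of fish a. MAPK14_2of2 stood at 9.51 and 8.80 CPM in these skins and at 8.04 CPM in this tumor.

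**Figure D3:**
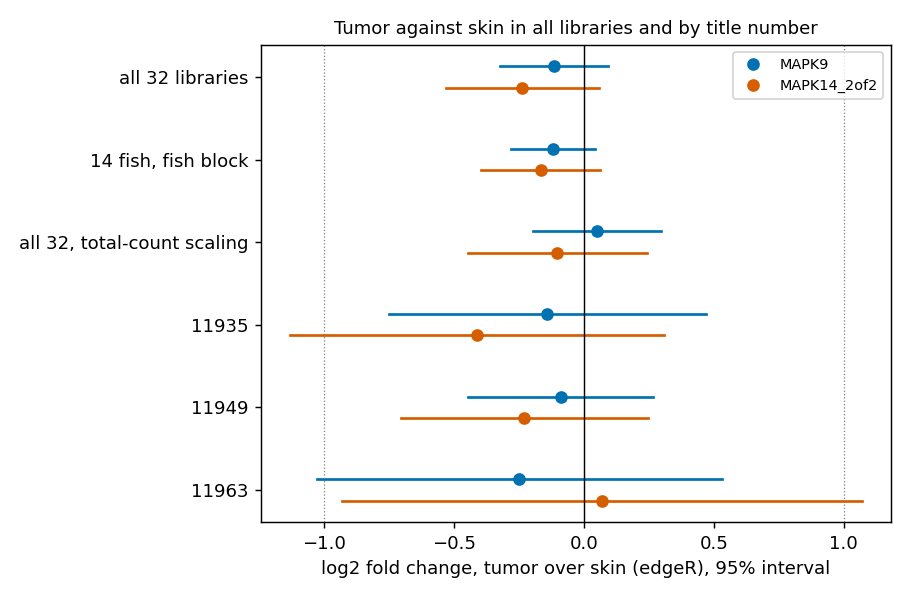
Log2 fold change of tumor over skin (horizontal axis, edgeR) with 95% intervals for MAPK9 and MAPK14_2of2, in all libraries, with the fish as a block, with total-count scaling, and within 3 title numbers; dotted lines mark 2-fold changes. Every interval includes 0, and those within 11935 and 11963 are the widest.

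Whether the tissue difference itself differed between the title numbers was tested as an interaction. The edgeR unadjusted p was 0.729 for MAPK9 and 0.692 for MAPK14_2of2, and 0.351 and 0.465 with the fish as a block. Over all rows 0% passed either interaction test, with 115 rows (0.703%) under an unadjusted p of 0.05 without the block and 958 (5.87%) with it, and DESeq2 called 0. These tests therefore do not show that the kinases responded alike in the title numbers.

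The level in a given tissue was then compared between title numbers. In skin, MAPK9 was ordered from 29.5 ± 2.32 CPM in 11935 (n = 3) through 32.5 ± 6.24 in 11949 (n = 8) to 39.7 ± 3.79 in 11963 (n = 3), values with SD. Neighbours in this order did not differ beyond their spread: the log2 difference from 11949 was -0.15 (SE 0.26) for 11935 and 0.28 (SE 0.26) for 11963, and the edgeR test over the 3 title numbers gave an adjusted p of 0.953. The skins of 11935 all lay below the skins of 11963. MAPK14_2of2 had the opposite order in skin, from 12.4 ± 1.19 CPM in 11935 through 10.5 ± 2.997 in 11949 to 9.18 ± 1.84 in 11963 (SD, edgeR adjusted p = 0.971). Here too all 3 skins of 11935 lay above all 3 of 11963, and those of 11949 covered both. For neither kinase was this separation of 3 libraries from 3 set against the share of all rows that separate likewise. The skins of 11935 and 11963 were not tested against each other alone, and the edgeR test over the 3 title numbers had unadjusted p of 0.379 and 0.567.

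In tumor, MAPK9 had the same order, at 27.0 ± 2.02 CPM in 11935, 31.0 ± 2.40 in 11949 and 32.7 ± 7.92 in 11963 (SD, edgeR adjusted p = 0.892), and the groups overlapped. MAPK14_2of2 was nearly level in tumor, at 9.42 ± 1.77, 9.11 ± 1.46 and 9.46 ± 3.17 CPM (SD, edgeR adjusted p = 0.994). Over all rows 0% passed this test in skin and 0.00636% in tumor. An unadjusted p under 0.05 was seen for 920 rows (5.91%) in skin and 1285 (8.17%) in tumor, and DESeq2 called 51 (0.341%) and 90 (0.574%), with 0 of the 2 kinases in each count. MAPK11 averaged 2.23 ± 1.72, 1.22 ± 0.888 and 1.07 ± 0.886 CPM in the skins of 11935, 11949 and 11963 and 1.11 ± 0.456, 0.947 ± 0.598 and 0.947 ± 0.723 CPM in their tumors (SD), and the groups overlapped.

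Variation from fish to fish was examined over both tissues. The mean of the 2 tissues of a fish, on the log2 CPM scale, spanned 0.73 for MAPK9, from 11949b to 11963d, which is a 1.66-fold range over 14 fish. For MAPK14_2of2 it spanned 0.90, from 11949l to 11935d, a 1.86-fold range. The median span over all tested rows was 2.12, and 0.939% of rows had a smaller span than MAPK9 and 3.20% a smaller one than MAPK14_2of2. In the test of all fish terms together, 79.4% of rows passed, while MAPK9 (edgeR adjusted p = 0.179) and MAPK14_2of2 (adjusted p = 0.206) did not. DESeq2 called 85.8% of all rows and 0 of the 2, with unadjusted p of 0.105 and 0.323. Within the 7 fish of 11949 alone 56% of rows passed, and the edgeR adjusted p were 0.721 and 0.311. Over the 14 fish Xmrk did not pass either (edgeR adjusted p = 0.670), though its skin levels ran from 25.7 to 110 CPM. The test looks for differences shared by both tissues of a fish, so failing it does not mark a steady row.

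MAPK9 was one of the steadiest rows of the table. Its biological coefficient of variation, the spread between libraries of a tissue that edgeR estimates beyond counting error, was 21.9%, rank 17 from the lowest among 14542 tested rows. The median row had 49.8%, and the trend at the abundance of MAPK9 was 53.8%. A place below the trend is common, since 9656 of the 14542 rows lay below theirs. MAPK14_2of2 had 27.0%, lower than all but 3.33% of rows, where the trend at its abundance was 59.8%. Relative to the trend, 0.316% of rows were steadier than MAPK9 and 1.60% steadier than MAPK14_2of2. The low spread was present in each tissue: the SD of log2 CPM of MAPK9 was 0.25 in skin and 0.17 in tumor, beside medians over rows of 0.72 in both.

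Other rows with a symbol were also steady, so the low spread is not particular to the kinases. Of the 20 tested rows with a symbol, 16 had a smaller coefficient of variation than the median row, and their own median was 36.6%. MAPK9 ranked 1 and MAPK14_2of2 ranked 4 among them. CUL4B, a ubiquitin ligase scaffold, came between at 22.0%, and the nuclear receptor copy NR2F6_1of2 at 25.7%. Xmrk stood at 45.7%. These are descriptions of the same 32 libraries, without a test. How identifier rows and symbol rows differ in their counting is not stated in the sources, and its part in the spread was not tested.

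**Figure D4:**
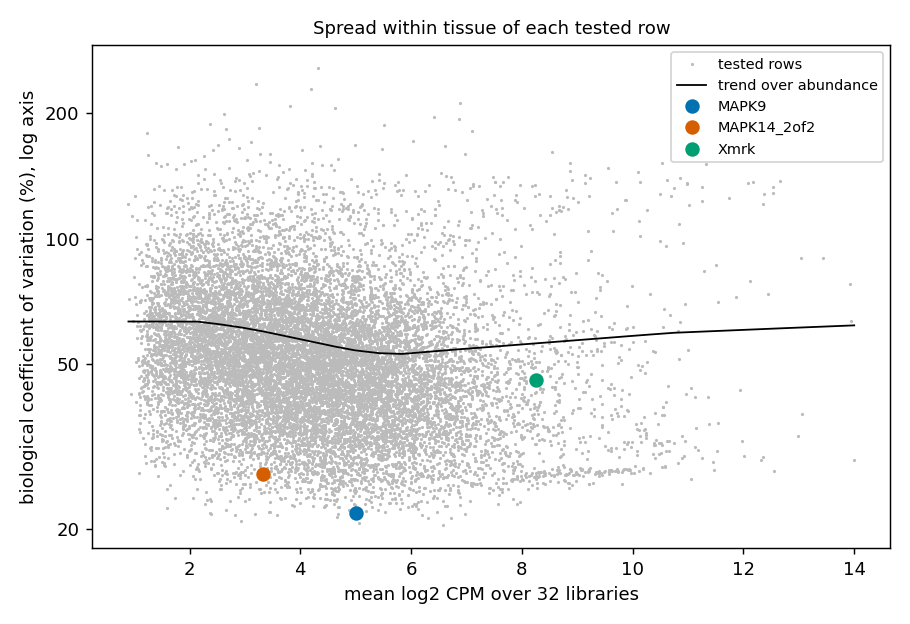
Biological coefficient of variation within tissue (vertical log axis, percent) against mean log2 CPM (horizontal axis) for 14542 tested rows in grey, with the trend as a line. MAPK9 at 21.9% and MAPK14_2of2 at 27.0% lie at the lower edge of the cloud, and Xmrk at 45.7% lies under the trend. Of the 14542 rows, 9656 lie under it.

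Whether the kinases varied together, or with Xmrk, was examined in 9 relations, with p-values from permutation tests and Benjamini-Hochberg adjustment over the 9. MAPK9 and MAPK14_2of2 showed no relation past the threshold in skin (n = 16, Pearson r = -0.14, permutation p = 0.616, Spearman rho = -0.21, p = 0.423) and in tumor (r = -0.15, p = 0.570, rho = -0.03, p = 0.908). Leaving out the 2 libraries farthest from the median of MAPK9 gave r = -0.45 in skin and 0.05 in tumor. Within 11949 the signs turned to r = 0.15 and 0.22 (n = 8 each). As differences between tumor and skin of a fish they had r = 0.11 (n = 14, permutation p = 0.705, rho = 0.12, p = 0.696). That became -0.03 without the 2 farthest fish and -0.21 within 11949.

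The strongest of the 9 relations was that of Xmrk with MAPK9 across the 16 tumors, where tumors with more Xmrk had more MAPK9. It was not set against the share of all rows that follow Xmrk as closely. Pearson r was 0.60 (permutation p = 0.0190, adjusted p = 0.171) and Spearman rho was 0.66 (permutation p = 0.00700, adjusted p = 0.0630), so it did not pass after adjustment. Without the 2 tumors farthest from the median of Xmrk r was 0.47, and within the 8 tumors of 11949 it was 0.50. As differences between tumor and skin in 14 fish, r was 0.43 (permutation p = 0.124, adjusted p = 0.288, rho = 0.38, p = 0.188), with 0.57 without the 2 farthest fish and 0.56 within 11949. Xmrk with MAPK14_2of2 had r = 0.06 across tumors (permutation p = 0.822, rho = 0.22, p = 0.416), which was 0.50 without the 2 farthest and 0.50 within 11949. As differences they had r = 0.24 (permutation p = 0.400, rho = 0.21, p = 0.465), with 0.07 without the 2 farthest and -0.10 within 11949.

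Between the tissues of the same fish r was 0.48 for MAPK9 (n = 14, permutation p = 0.0855, adjusted p = 0.288, rho = 0.36, p = 0.204) and 0.43 for MAPK14_2of2 (permutation p = 0.128, adjusted p = 0.288, rho = 0.44, p = 0.117). Leaving out the 2 fish farthest from the median skin, which also narrows the range of skin values, gave r = 0.08 and 0.11. Within the 7 fish of 11949 r was 0.42 and 0.56. After adjustment 0 of the 9 relations passed, and unadjusted 1 passed by Pearson r, that of Xmrk with MAPK9 in tumor.

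**Figure D5:**
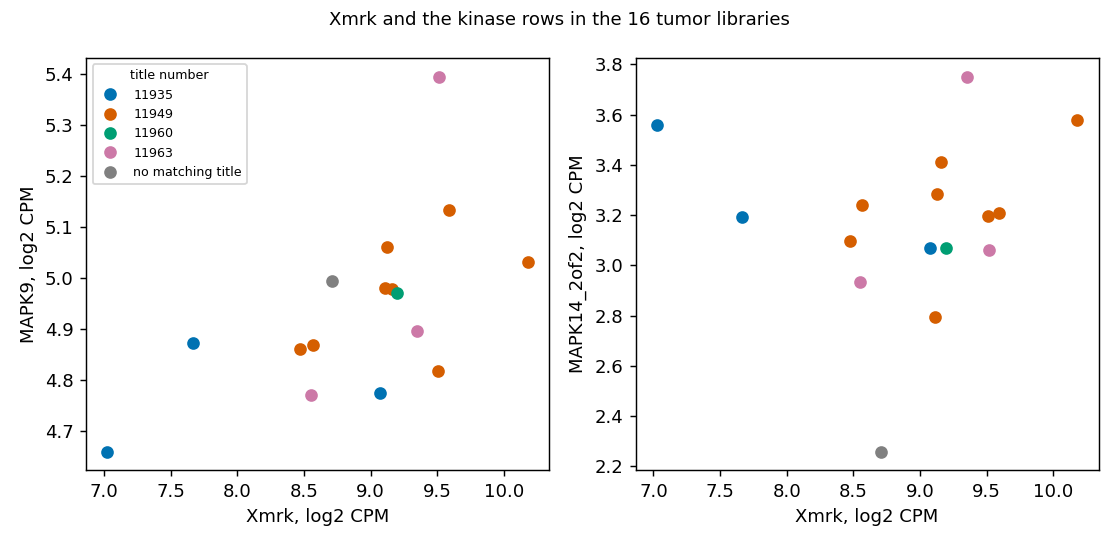
Log2 CPM of MAPK9 (left) and MAPK14_2of2 (right) against log2 CPM of Xmrk in the 16 tumor libraries, colored by title number. MAPK9 has r = 0.60 and MAPK14_2of2 has r = 0.06 with Xmrk, and the lowest Xmrk values are tumors of 11935.

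Rows with a similar pattern were sought by the Pearson r of log2 CPM after the tissue means were removed, over all 32 libraries. Among the 19 other tested rows with a symbol, MAPK9 was most like PRKCE_1of2, a copy of a protein kinase C gene (r = 0.44), and GPX6, of the glutathione peroxidase family (0.40), and least like STAT4, a cytokine-activated transcription factor (-0.29). MAPK14_2of2 was most like CHD4_2of2, a copy of a chromatin remodeller gene (0.32), and OXR1, a gene of oxidation resistance (0.32), and least like AP1M1, a clathrin adaptor subunit (-0.40). Xmrk ranked 5 of these 19 rows in likeness to MAPK9 (r = 0.36) and 12 of 19 in likeness to MAPK14_2of2 (r = -0.01). Between MAPK9 and MAPK14_2of2 r was -0.14. Among 14522 identifier rows the closest to MAPK9 were ENSXMAT00000016168 (0.69) and ENSXMAT00000009425 (0.69), and to MAPK14_2of2 ENSXMAT00000016305 (0.72) and ENSXMAT00000006544 (0.68). These are the highest of many values from libraries that share fish and depth, and the files do not pair the identifiers with gene names.

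The other genes of the pathway could not be followed by name. Of 76 symbols listed in 7 groups (kinases of the same families, their upstream kinases, scaffolds, targets, phosphatases and the ERK branch), 1 matched a row, MAPK14_2of2 itself, and 0 of it passed in either direction.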

How the data were processed

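The table that the authors deposited holds unnormalised read counts for 20499 transcript models in 32 library columns. GSNAP is the aligner named in the submitters' processing notes. The sources used here name no aligner version, genome build, annotation, counting program or strand setting. RNA had an integrity score above 8, per the labels' protocols. Every column was used, and 0 columns were left out.

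Rows were matched by name after the prefix XM_ and the ending .CDS were removed. Tissue and fish came from the sample titles. The members, gene lists and tests were chosen with earlier results of these data known. Tests across rows were made with edgeR 4.0.16 in R 4.3.3, by quasi-likelihood, with TMM scaling, filterByExpr and no block, with Benjamini-Hochberg adjustment over all tested rows and a threshold of 0.05. MAPK11 and the count ratio used permutation tests of single values. The log2 CPM values carry a prior count of 2. The scripts were tested on simulated data. For the tissue comparisons the simulated libraries were independent and held no fish effect, so they do not test leaving the fish out of the model. Replicates are different fish: over all pairs of libraries of a tissue the lowest chi-square per degree of freedom was 33.3, and 0 were identical. The titles pair 14 fish. Deviations from the tissue mean correlated across rows with r of 0.421 to 0.774 between the tissues of 1 fish, and between different fish from -0.341 to 0.338.

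Named genes are the members, Xmrk, and for likeness the 2 highest and the lowest symbol row and the 2 highest identifiers. CUL4B and NR2F6_1of2 were named after their spread was seen. Alternatives were RLE factors, DESeq2 1.42.0, other low-count filters, the fish as a block, voom of limma 3.58.1 with a random fish effect, the title number as a covariate, removal of the 10 most abundant rows, and leaving out libraries. Figures were drawn with matplotlib 3.10.9.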

Additional observations from a re-analysis of the deposited data

Results flagged for a closer look

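With 2578877 counts in all, the tumor of 11949f was far shallower than the other tumors of 11949, of which the lowest held 4938279. Its levels were 28.7 CPM for MAPK9, 8.20 CPM for MAPK14_2of2 and 1.02 CPM for MAPK11. In 14 groups of values searched for a sample apart from the rest, 1 was found, where chance gives about 0.7.

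The ratio of MAPK14_2of2 to MAPK9 was lower in tumor than in skin in all 3 fish of 11935 (median log2 difference -0.31) and higher in all 3 fish of 11963 (median 0.21). This was 1 of 12 comparisons of direction between title numbers. The means were -0.28 and 0.32. The comparison was picked because the fish of 11935 and those of 11963 had opposite signs. That choice fixes the exact two-sided permutation test of 3 fish against 3 at p = 0.100, the smallest that this design allows. The test therefore adds no support.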

How the results depend on the processing

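Over 196 alternatives to 28 results, 0 moved a result across its threshold and 7 turned a sign, in values that had not passed. Many of the alternatives leave out a single library and so overlap, and the joint tests have no sign to turn. The tally therefore does not measure robustness. Total-count scaling, chosen after the data were seen, gave a log2 fold change of 0.049 for MAPK9 in all libraries (edgeR adjusted p = 0.803) and -0.10 for MAPK14_2of2 (adjusted p = 0.700). It placed the median of all rows at 0.20 in place of 0.04 under TMM, so both kinases lay below the median row under either scaling, and it split the calls over all rows into 2352 higher and 1298 lower in place of 1634 and 1785. Within 11963, leaving out single libraries gave MAPK14_2of2 a log2 fold change from -0.25 to 0.24. Within 11949 the relations of MAPK9 with MAPK14_2of2 turned to r = 0.15 in skin, 0.22 in tumor and -0.21 as tumor minus skin, and that of Xmrk with MAPK14_2of2 as tumor minus skin to -0.10. The cause was not tested. Omission of the skin of 11935f, also chosen after the data were seen, changed the MAPK11 difference to -0.15 CPM. With the fish as a replicate block, the log2 fold changes were -0.12 for MAPK9 and -0.17 for MAPK14_2of2, and the block changed no call for the kinases. The block leaves out unpaired libraries, and the paired libraries without it gave -0.13 and -0.17. Omitting only the skin of 11949q gave -0.08 and -0.19. Over all alternatives the adjusted p of the tissue comparison ran from 0.201 to 0.803 for MAPK9 and from 0.0957 to 0.700 for MAPK14_2of2. Few fish per title number and few MAPK11 reads limit the precision.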
